A study of Rattus norvegicus with 21 samples.

Results

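The 39 genes described here encode the sensors, chaperones, folding enzymes, degradation factors and translocation proteins of the unfolded protein response and of protein folding in the endoplasmic reticulum (ER). They were taken by symbol from a deposited table of 32750 genes, with an average over 9 libraries of no less than 10 normalized counts as the limit. All 39 were found once and passed it, the lowest being Derl3 with a mean of 51.8. The cells were INS-1 832/13, a clonal rat insulinoma line, that is, an insulin-secreting line grown from a beta cell tumour, with no genetic change of the study's own named in the labels. The groups used here are 5 polyadenylated RNA libraries labelled as treated with 1 µM inorganic arsenic (iAs) for 24 h and 4 labelled untreated. A normalized count is a read count that the authors scaled to make libraries comparable, and the factor used is not stated.

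The ER folds and ships secreted proteins, which in a beta cell are mostly insulin and its processing enzymes. When unfolded protein accumulates, 3 membrane sensors, IRE1 (Ern1), ATF6 (Atf6) and PERK (Eif2ak3), start the unfolded protein response. IRE1 splices the mRNA of the transcription factor XBP1, ATF6 is cut to release a transcription factor, and PERK phosphorylates eIF2alpha, which lowers protein synthesis while it raises ATF4 and its targets. XBP1 and cleaved ATF6 act on chaperone and degradation genes through short promoter elements.

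Those elements are shown first, because they are what several of these genes share in sequence. The ER stress response element (ERSE) was searched as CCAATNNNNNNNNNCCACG, its shorter form ERSE-II as ATTGG, 1 free base and CCACG and the unfolded protein response element (UPRE) as TGACGTGG, each as exact letters on both strands. The windows, from the RefSeq promoter table of build GRCr8, run from 250 bases before to 50 bases after an annotated gene start, and 31 of the 39 genes had one. An ERSE stood in the windows of 8 of these 31 genes, and an ERSE-II in those of 3, against 0.0765% and 0.0619% of all 27457 genes with a window. The UPRE letters stood in the windows of Hyou1 and Vcp, against 0.681% of all genes with a window. Counted by window, the shares of all 33469 windows were 0.0657%, 0.0508% and 0.595% for ERSE, ERSE-II and UPRE. The genes with an ERSE were Xbp1, Hspa5, Hsp90b1, Dnajc3, Calr, Canx, Creld2 and Derl3, and those with an ERSE-II were Hyou1, Dnajb11 and Herpud1. Windows were not in the table for Atf6, Ern1, Manf, Pdia3, Pdia6, Derl1, Os9 and Sec61a1. A match describes the letters alone.

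Whole windows are given for 3 chaperone genes and the isomerase gene Creld2, which hold a match, and for Pdia4, a gene whose groups did not overlap, which holds none. No rule set this choice. The log2 differences of these genes, given below, are 0.30 to 0.49, while another matched gene, Calr, differs by 0.07. Each window is written along the gene's own strand, 5′ to 3′, with the fixed letters of a match in capitals. They lie at chr3:38452766-38453065 (plus strand) for Hspa5, chr7:23012244-23012543 (minus strand) for Hsp90b1, chr8:53602632-53602931 (plus strand) for Hyou1, chr7:121789134-121789433 (plus strand) for Creld2 and chr4:78153142-78153441 (minus strand) for Pdia4 (GRCr8). In Hyou1 the UPRE overlaps the first of its pair of ERSE-II matches, so their capitals run together, and a second Hyou1 window further downstream held no match.
Hspa5: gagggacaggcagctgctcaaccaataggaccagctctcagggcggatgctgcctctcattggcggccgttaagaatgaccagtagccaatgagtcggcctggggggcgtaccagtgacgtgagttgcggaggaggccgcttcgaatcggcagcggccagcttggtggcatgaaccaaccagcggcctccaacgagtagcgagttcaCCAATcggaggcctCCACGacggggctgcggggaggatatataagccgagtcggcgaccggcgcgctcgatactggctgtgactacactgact
Hsp90b1: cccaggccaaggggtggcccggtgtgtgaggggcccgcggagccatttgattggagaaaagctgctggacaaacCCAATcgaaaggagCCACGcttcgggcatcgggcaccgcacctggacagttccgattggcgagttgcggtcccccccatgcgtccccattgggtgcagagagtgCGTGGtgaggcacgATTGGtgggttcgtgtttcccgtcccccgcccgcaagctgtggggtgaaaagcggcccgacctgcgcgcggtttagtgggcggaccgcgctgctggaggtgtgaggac
Hyou1: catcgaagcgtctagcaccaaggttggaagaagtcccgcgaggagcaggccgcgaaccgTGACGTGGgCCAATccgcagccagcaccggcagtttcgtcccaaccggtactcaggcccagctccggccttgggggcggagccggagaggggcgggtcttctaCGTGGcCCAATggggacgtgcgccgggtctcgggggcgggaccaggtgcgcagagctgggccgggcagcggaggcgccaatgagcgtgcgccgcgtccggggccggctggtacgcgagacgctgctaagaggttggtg
Creld2: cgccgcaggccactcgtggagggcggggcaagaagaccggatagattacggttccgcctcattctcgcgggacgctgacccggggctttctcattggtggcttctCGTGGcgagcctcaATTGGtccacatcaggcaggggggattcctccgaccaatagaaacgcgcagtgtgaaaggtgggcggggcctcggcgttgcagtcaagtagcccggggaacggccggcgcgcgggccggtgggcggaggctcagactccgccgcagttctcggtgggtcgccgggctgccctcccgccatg
Pdia4: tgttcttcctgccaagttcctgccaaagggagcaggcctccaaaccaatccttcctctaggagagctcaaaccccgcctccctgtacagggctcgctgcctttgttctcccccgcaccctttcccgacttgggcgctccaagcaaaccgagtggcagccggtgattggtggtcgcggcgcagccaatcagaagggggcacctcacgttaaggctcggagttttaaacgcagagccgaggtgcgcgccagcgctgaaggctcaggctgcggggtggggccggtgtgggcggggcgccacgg

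The matches of the other genes are short, and are given alone with the same use of capitals. On the strand opposite to the gene an ERSE reads CGTGG, 9 free bases and ATTGG, which is how those of Calr and Derl3 appear.
Xbp1 (ERSE, -65 to -47): CCAATcgcagacggCCACG
Dnajc3 (ERSE, -133 to -115): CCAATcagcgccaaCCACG
Canx (ERSE, -230 to -212): CCAATcatcacgctCCACG
Calr (ERSE, -232 to -214): CGTGGtcgaccctgATTGG
Derl3 (ERSE, -154 to -136): CGTGGgacttccttATTGG
Dnajb11 (ERSE-II, -10 to 1): ATTGGcCCACG
Herpud1 (ERSE-II, -124 to -114): ATTGGgCCACG
Vcp (UPRE, -223 to -216): TGACGTGG

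**Figure D1:**
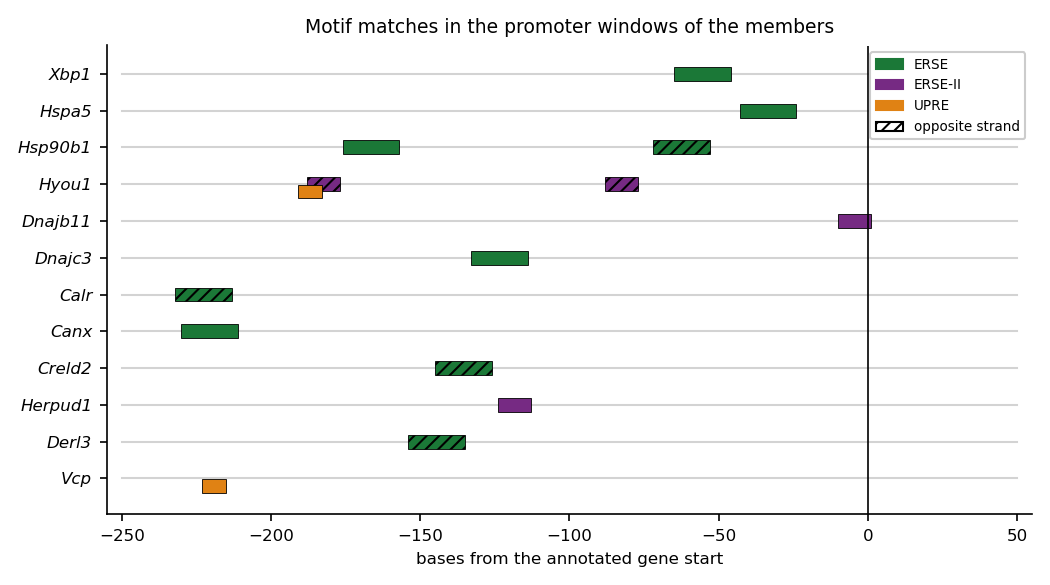
Position of each exact motif match in the promoter windows of the genes that hold one, in bases from the annotated gene start (x axis); colours give the motif and hatching the opposite strand. Matches lie between -232 (Calr) and 1 (Dnajb11), and Hsp90b1 and Hyou1 hold more than 1.

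The column totals were 51009800 to 55869159 normalized counts. The most abundant beta cell gene Ins1 had 1238010 to 1753900 normalized counts in the libraries labelled iAs and 1579190 to 2086080 in those labelled untreated, while the hepatocyte genes Alb and Cyp2e1 were at most 2.01, although the labels also name liver as the tissue. The 10 hepatocyte markers summed to 2508 to 3025 in the libraries labelled iAs and 3312 to 3832 in those labelled untreated, nearly all of it from 4 of them, Tf, Ass1, Fgb and Serpina1. The libraries labelled iAs were sequenced in lane 4 and those labelled untreated in lane 3, so lane and treatment cannot be told apart. Hmox1, an oxidant response gene known to be induced by arsenic, averaged 1739 ± 465 normalized counts over the 5 iAs libraries and 14132 ± 1727 over the 4 untreated libraries (SD). Hmox1 was thus lower in the libraries labelled iAs, the reverse of that induction. Whether the group labels are exchanged was not tested, and an exchange would reverse every direction below. Every direction rests on these labels, and "higher" or "lower" refers to the libraries labelled iAs relative to those labelled untreated. Whether the libraries within a group came from separate cultures is not stated, and the p-values therefore cover only the variation among these libraries, which may be technical. In such bulk RNA, fewer cells and less RNA per cell cannot be told apart.

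A feature of the libraries bears on many of these genes. Each library has a code, and the codes share 3 endings. The ending 52 belongs to iAs replicates 1, 4 and 5 and untreated replicates 1 and 3, another to 1B513 (iAs replicate 3) and 0C513 (untreated replicate 2), and the last to 1A922 (iAs replicate 2) and 0C922 (untreated replicate 4). The labels do not say what the ending stands for. The libraries 1A922 and 0C922 stood apart in the same genes. The deviations of iAs replicate 2 from the iAs mean and of untreated replicate 4 from the untreated mean correlated at r = 0.91 over the 39 genes, and at 0.87 without Herpud1. For 1B513 and 0C513 the correlation was 0.73. The other 18 pairs of 1 iAs and 1 untreated library, among them those sharing the ending 52, lay between -0.75 and 0.49. Pairs sharing the ending 52 gave 0.17 to 0.49. Without Herpud1, iAs replicate 1 gave 0.02 and -0.06 with untreated replicates 1 and 3 of that ending. Over the 7650 genes averaging 1000 normalized counts or more, the pair 1A922 and 0C922 gave 0.56 and the pair 1B513 and 0C513 0.14. The other 18 pairs gave -0.42 to 0.48, so that the pair 1B513 and 0C513 lay within their range. Over all 14410 genes tested the values were 0.17 and 0.03, with -0.14 to 0.10 for the others. These correlations are across genes, which are not independent, and deviations within a group sum to 0. Below, values come from all 9 libraries, and the fit that holds the ending as a term, or leaves out both 1A922 and 0C922, is given beside them.

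In the libraries 1A922 and 0C922 most chaperone genes were low, and Herpud1 and the sensors Ern1 and Atf6 were high. Of the 39 genes, 34 lay below their group mean in iAs replicate 2 and 28 in untreated replicate 4. Such counts were not particular to these libraries, as 30 lay below in iAs replicate 1 and 31 in untreated replicate 2. Herpud1, whose product helps to organise the degradation complex, lay 0.63 log2 units above the iAs mean in iAs replicate 2 and 0.75 above the untreated mean in untreated replicate 4. Ern1 lay 0.37 and 0.30 above, and Atf6 0.21 and 0.19 above. The BiP co-factor gene Sdf2l1 deviated by -0.66 and -0.47, Creld2 by -0.64 and -0.32 and Hyou1 by -0.33 and -0.25. For each of these genes both libraries deviated in the same direction, as the heat map of deviations shows.

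**Figure D2:**
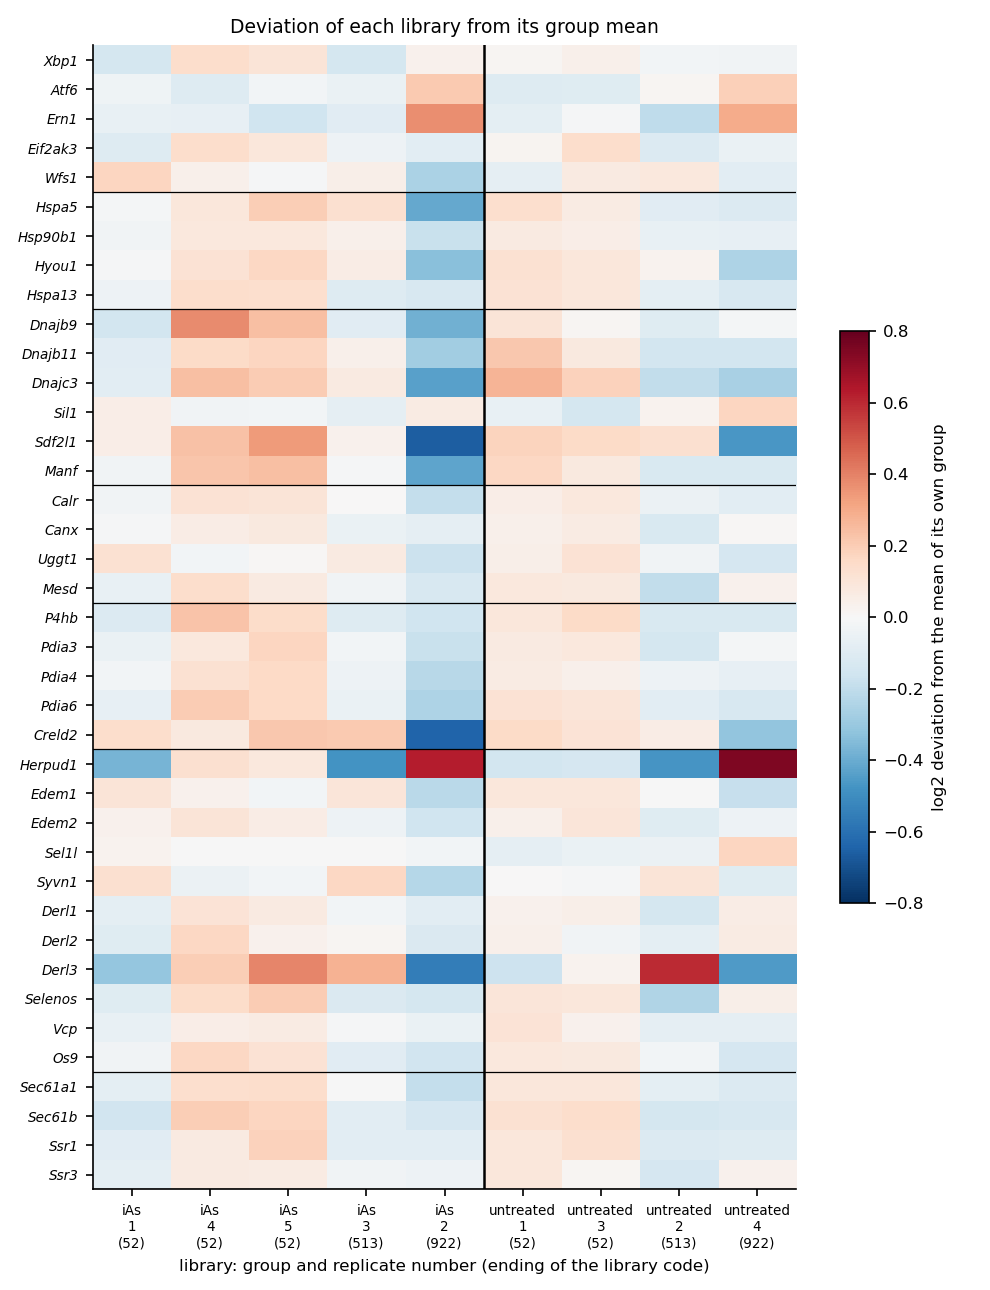
Log2 deviation of each library (columns: group, replicate number and, in brackets, the ending of the library code) from the mean of its own group, for the 39 genes in rows, with lines between roles. Herpud1, Ern1 and Atf6 are red and Sdf2l1, Creld2 and Hyou1 blue in the columns of 1A922 and 0C922.

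The spread within groups enters each call, together with the size of the difference. Over the 39 genes the median SD within groups was 0.128 on the log2 scale, and 0.0911 once the ending was a term. Over the 7650 genes with a mean of at least 1000 it was 0.105, and 0.0872 with the ending. Herpud1 (SD 0.48), Derl3 (0.42), Sdf2l1 (0.36) and Creld2 (0.31) varied most, and Vcp (0.07), Canx (0.07) and Sel1l (0.08) least.

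The comparison asked which of these genes differ between the libraries labelled iAs and those labelled untreated. The rises were in lumenal chaperones and an isomerase, the falls in degradation factors and in Wfs1. With limma on log2(normalized count + 1), a gene was called at an adjusted p under 0.05 over the 14410 genes with a mean of at least 10. Of the 39 genes 3 were called higher (Pdia4, Hsp90b1 and Hyou1) and 4 lower (Wfs1, Edem2, Selenos and Vcp), while of all genes tested 15.1% were called higher and 14.9% lower (30.0% in all). The 7 called were 17.9% of the 39 genes, below the share of all genes tested, but this order did not hold in every fit below. Their median log2 difference was 0.03, with 22 above 0 and 17 below, against -0.0007 over all genes tested. With the ending as a term, 10 were called higher and 5 lower, or 38.5% in all, against 18.6% and 18.0% of all genes (36.6% in all). Without both 1A922 and 0C922, 7 were called higher and 3 lower, or 25.6% in all (13.8% and 13.1% of all genes, 26.9% in all), and within the libraries of ending 52 alone (3 labelled iAs, 2 untreated) 4 and 4, or 20.5% in all (10.6% and 9.92% of all genes, 20.5% in all). The other endings have a single library per group and allow no test of their own. The groups did not overlap for 5 of the 39 genes, 2 higher and 3 lower, against 13.0% and 12.9% of all genes (25.9% in all).

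**Figure D3:**
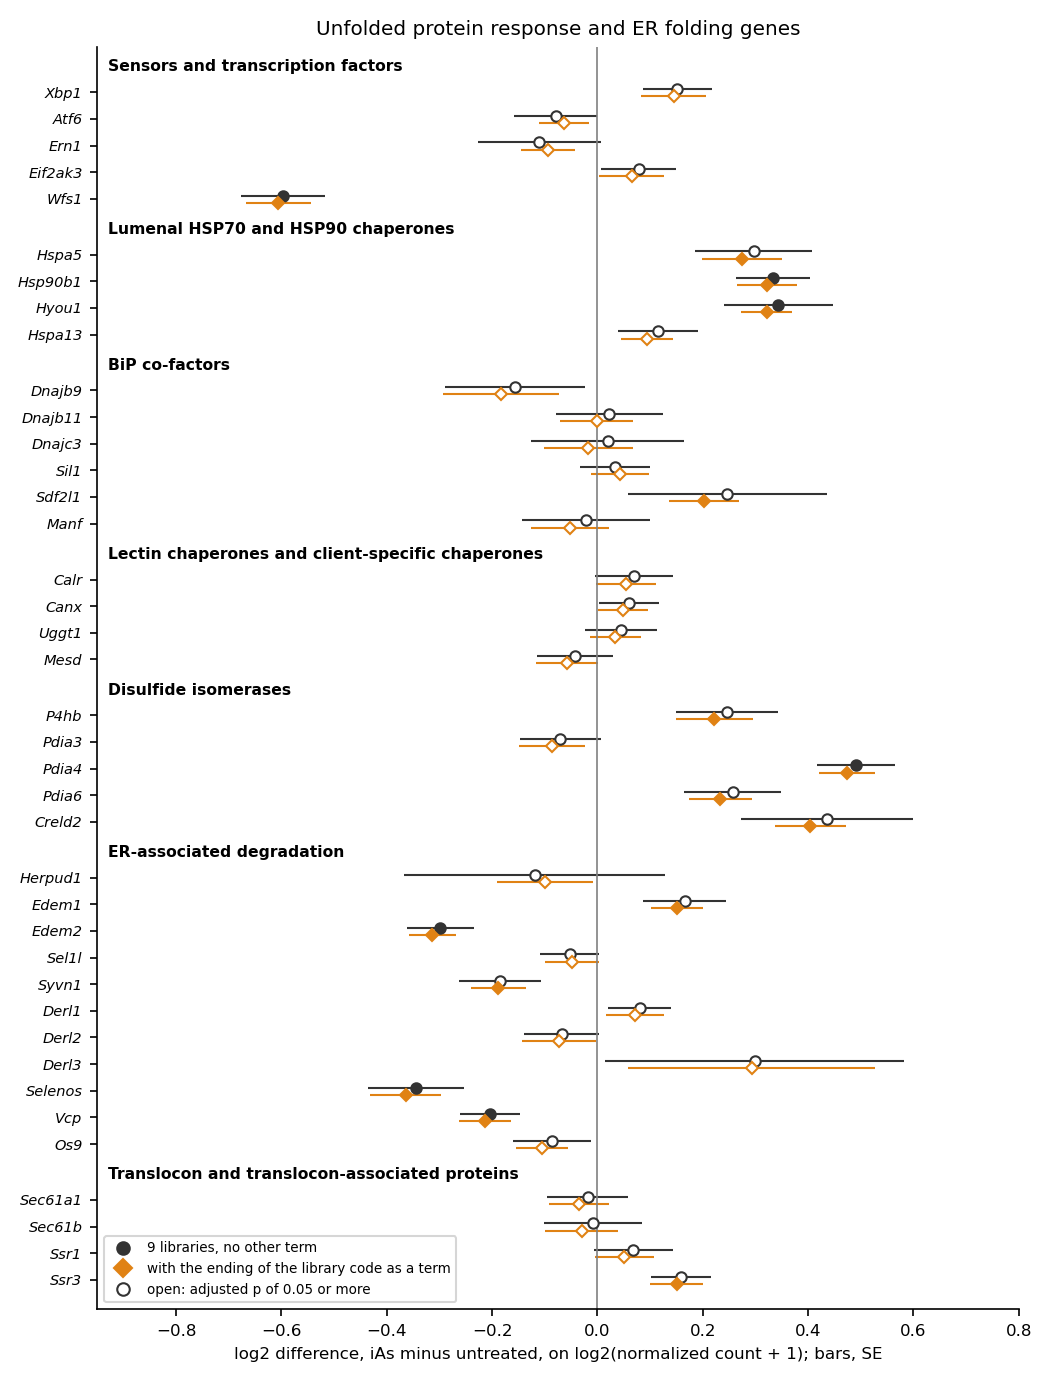
Log2 difference, iAs minus untreated, on the log2(normalized count + 1) scale (x axis) for each of the 39 genes by role, from the fit of 9 libraries (black circles) and from the fit with the ending of the library code as a term (orange diamonds); bars are the SE, and filled symbols have an adjusted p under 0.05. Pdia4 (0.49) lies farthest to the right in the first fit and Wfs1 (-0.60) farthest to the left, and the bars are shorter in the second fit for 38 of the 39 genes.

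Among the sensors and transcription factors 1 of 5 genes was called, Wfs1, and none of the 3 sensors, where 30.0% of all genes were called. Wfs1 encodes wolframin, an ER membrane protein that restrains ER stress signalling and whose loss in humans causes a syndrome with diabetes. Wfs1 (ENSRNOG00000005108) had 2726, 2035, 2496, 2492 and 2408 normalized counts in iAs replicates 1 to 5, against 3483, 3883, 3845 and 3453 in untreated replicates 1 to 4. All 5 libraries labelled iAs lay below all 4 untreated ones, and iAs replicate 2 was the lowest. The log2 difference was -0.60 (SE 0.08, limma adjusted p = 2.1e-04), and between -0.64 and -0.53 in all 23 alternatives, each of which kept the call.

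The sensor genes Ern1, Atf6 and Eif2ak3 differed by -0.11, -0.08 and 0.08 in log2 and were not called (adjusted p = 0.51, 0.49 and 0.45). Ern1 had 2862, 3846, 2798, 2848 and 2661 normalized counts in iAs replicates 1 to 5, against 3040, 2786, 3190 and 3942 in untreated replicates 1 to 4. Its groups overlapped, and the highest library of each was 1A922 or 0C922. Atf6 followed the same order, with 3077 in iAs replicate 2 and 3204 in untreated replicate 4, and 2475 to 2834 in the other 7 libraries. Eif2ak3 ranged from 2301 to 2723 normalized counts in the libraries labelled iAs and from 2165 to 2582 in those labelled untreated. Xbp1, the transcription factor made by IRE1 splicing, had 5272, 5961, 5264, 6408 and 6236 normalized counts in iAs replicates 1 to 5, against 5284, 5145, 5368 and 5116 in untreated replicates 1 to 4. Its groups overlapped in iAs replicates 1 and 3 (log2 difference 0.15, SE 0.07, adjusted p = 0.11). The table counts whole genes, so spliced and unspliced Xbp1 were not separated.

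Of the 4 lumenal HSP70 and HSP90 chaperone genes, Hsp90b1 and Hyou1 were called higher (15.1% of all genes were), and Hspa5 was called in some fits. Hsp90b1 encodes GRP94, the ER's HSP90. Hsp90b1 (ENSRNOG00000026963) had 99854, 90069, 104691, 108253 and 108169 normalized counts in iAs replicates 1 to 5, against 85086, 77642, 83936 and 77336 in untreated replicates 1 to 4. The groups did not overlap (log2 difference 0.33, SE 0.07, adjusted p = 0.0036). The call held in 22 of 23 alternatives. It was lost with a block by the title codes (0.31, adjusted p = 0.081).

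Hyou1 encodes an HSP70-related protein that exchanges nucleotide on BiP. It had 27656, 22070, 28932, 30082 and 31239 normalized counts in iAs replicates 1 to 5, against 23880, 22359, 23370 and 18444 in untreated replicates 1 to 4. The groups overlapped in iAs replicate 2, the lowest of its group, as untreated replicate 4 was of its own. The log2 difference was 0.34 (SE 0.10, adjusted p = 0.025), and 0.32 (adjusted p = 5.0e-04) with the ending as a term. Its call was lost without untreated replicate 4 or iAs replicates 3, 4 or 5, each in turn (0.26 to 0.33, adjusted p between 0.0526 and 0.0709), with quantile normalization (0.26, adjusted p = 0.085) and without limma's trend (0.34, adjusted p = 0.061). It was kept without both 1A922 and 0C922 (0.34, adjusted p = 0.0026).

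Hspa5 encodes BiP, the HSP70 of the ER lumen, which also holds the sensors inactive. It had 67928, 51712, 75029, 73173 and 78604 normalized counts in iAs replicates 1 to 5, against 61314, 52488, 58413 and 51654 in untreated replicates 1 to 4. The libraries labelled iAs other than replicate 2 lay above all untreated ones, and iAs replicate 2 lay among the lowest. The log2 difference was 0.30 (SE 0.11) and was not called (adjusted p = 0.063). It was called with the ending as a term (0.28, adjusted p = 0.016), with array weights (0.28, adjusted p = 0.028), without iAs replicate 2 (0.40, adjusted p = 0.0030) and without both 1A922 and 0C922 (0.36, adjusted p = 0.0079), but not in ending 52 alone (0.29, adjusted p = 0.054). Between 1A922 and 0C922 Hspa5 differed by 0.0016, and between 1B513 and 0C513 by 0.52. Hspa13, a microsomal HSP70-like ATPase, differed by 0.11 (adjusted p = 0.28).

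None of the 6 BiP co-factor genes was called by limma over all 9 libraries (30.0% of all genes were), and 0 of them had an unadjusted p under 0.05. Dnajb9, Dnajb11 and Dnajc3 encode J-domain proteins that bring clients to BiP, Sil1 exchanges its nucleotide, Manf binds its nucleotide-bound form, and Sdf2l1 forms a complex with Dnajb11. Sdf2l1 had 3488, 2129, 3448, 3956 and 4254 normalized counts in iAs replicates 1 to 5, against 3211, 3104, 3159 and 2051 in untreated replicates 1 to 4. The libraries 1A922 and 0C922 were the lowest of their groups, and the other 4 libraries labelled iAs lay above the other 3 untreated ones. Its log2 difference was 0.25 (SE 0.19, adjusted p = 0.36), and 0.20 (SE 0.07, adjusted p = 0.034) with the ending as a term. Without both 1A922 and 0C922 it was 0.26 (adjusted p = 0.036), and in ending 52 alone 0.29, not called (adjusted p = 0.053).

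The other co-factor genes overlapped between the groups. Dnajb9 had 1229, 1042, 1273, 1769 and 1603 normalized counts in iAs replicates 1 to 5, against 1625, 1414, 1529 and 1494 in untreated replicates 1 to 4. Both the highest and the lowest library were labelled iAs, and the log2 difference of -0.16 was not called (adjusted p = 0.41). Dnajc3 ranged from 2351 to 3768 normalized counts in the libraries labelled iAs and from 2625 to 3787 in those labelled untreated. Dnajb11, Dnajc3, Sil1 and Manf differed by 0.02, 0.02, 0.03 and -0.02, with adjusted p between 0.74 and 0.94. The sign of Dnajb11 and Dnajc3 turned with rescaling to equal totals, to -0.011 and -0.014.

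The 4 genes of lectin and client-specific chaperones were not called in any fit, and 0 had an unadjusted p under 0.05 by limma. Over all 9 libraries 30.0% of all genes were called. Calr and Canx encode calreticulin and calnexin, which bind sugar-tagged folding proteins, Uggt1 puts back the tag on unfolded ones, and Mesd is known for folding receptors of the LDL receptor family. Calr had 94826, 84757, 97112, 105144 and 104002 normalized counts in iAs replicates 1 to 5, against 95765, 89297, 97725 and 87116 in untreated replicates 1 to 4. Its log2 difference was 0.07 (SE 0.07, adjusted p = 0.52), and those of Canx, Uggt1 and Mesd were 0.06, 0.05 and -0.04. Canx was among the tightest genes, between 40577 and 45002 normalized counts in the libraries labelled iAs and between 37698 and 42789 in those labelled untreated. Calr and Canx hold an ERSE, as Hsp90b1 does, and the difference between them and Hsp90b1 was not tested.

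Among the 5 disulfide isomerase genes Pdia4 was called higher (15.1% of all genes were). With the ending as a term P4hb, Pdia6 and Creld2 were called higher too (18.6% of all genes were). These enzymes form and rearrange the disulfide bonds that proinsulin and other secreted proteins need. Pdia4 (ENSRNOG00000006228), also named ERp72, had 23718, 20618, 23403, 26214 and 26828 normalized counts in iAs replicates 1 to 5, against 17922, 16606, 17617 and 16352 in untreated replicates 1 to 4. Every library labelled iAs exceeded every untreated one, also 1A922 against 0C922. The log2 difference was 0.49 (SE 0.07, adjusted p = 4.8e-04), and all 23 alternatives kept the call, with 0.43 to 0.55.

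Creld2, an ER protein with isomerase activity, had 7439, 4324, 7795, 7140 and 7827 normalized counts in iAs replicates 1 to 5, against 5540, 5191, 5380 and 4007 in untreated replicates 1 to 4. As for Sdf2l1, the libraries 1A922 and 0C922 were the lowest of each group and the remaining ones did not overlap. Its log2 difference of 0.44 (SE 0.16, adjusted p = 0.062) became 0.40 (SE 0.07, adjusted p = 8.8e-04) with the ending as a term and 0.49 (adjusted p = 2.5e-04) without both 1A922 and 0C922. Creld2 overlaps Alg12 in the RefSeq annotation, so reads of both may be mixed.

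P4hb, which encodes protein disulfide isomerase itself, had 109520, 105946, 109802, 138094 and 130606 normalized counts in iAs replicates 1 to 5, against 106093, 91367, 110888 and 91670 in untreated replicates 1 to 4. The groups overlapped in untreated replicates 1 and 3 (log2 difference 0.25, SE 0.10, adjusted p = 0.076; 0.22, adjusted p = 0.033, with the ending). P4hb was not called without both 1A922 and 0C922 (0.24, adjusted p = 0.13) or in ending 52 alone (0.21, adjusted p = 0.25). Pdia6, which also attenuates the sensor IRE1, differed by 0.26 (SE 0.09, adjusted p = 0.053), and by 0.23 (adjusted p = 0.010) with the ending, 0.28 (adjusted p = 0.038) without both 1A922 and 0C922 and 0.25 (adjusted p = 0.082) in ending 52 alone. Pdia3, the isomerase that works with calnexin and calreticulin, differed by -0.07 (adjusted p = 0.53) and was called lower with quantile normalization alone (-0.16, adjusted p = 0.037). Over the 19 chaperone, co-factor and isomerase genes, 3 rose and 0 fell, 15 lay above 0 and the median was 0.07, against 15.1% higher and 14.9% lower of all genes; with the ending as a term 8 rose and 0 fell, against 18.6% and 18.0%. The 3 rises are thus near the share of all genes. This set joins roles in which no gene was called lower, so its 0 falls are no separate result. The other 20 genes had 0 rises and 4 falls, and 2 rises and 5 falls with the ending as a term. At an unadjusted p under 0.05, limma gave 7 rises and 0 falls among the 19 genes. The share of all genes at that limit is not given here.

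**Figure D4:**
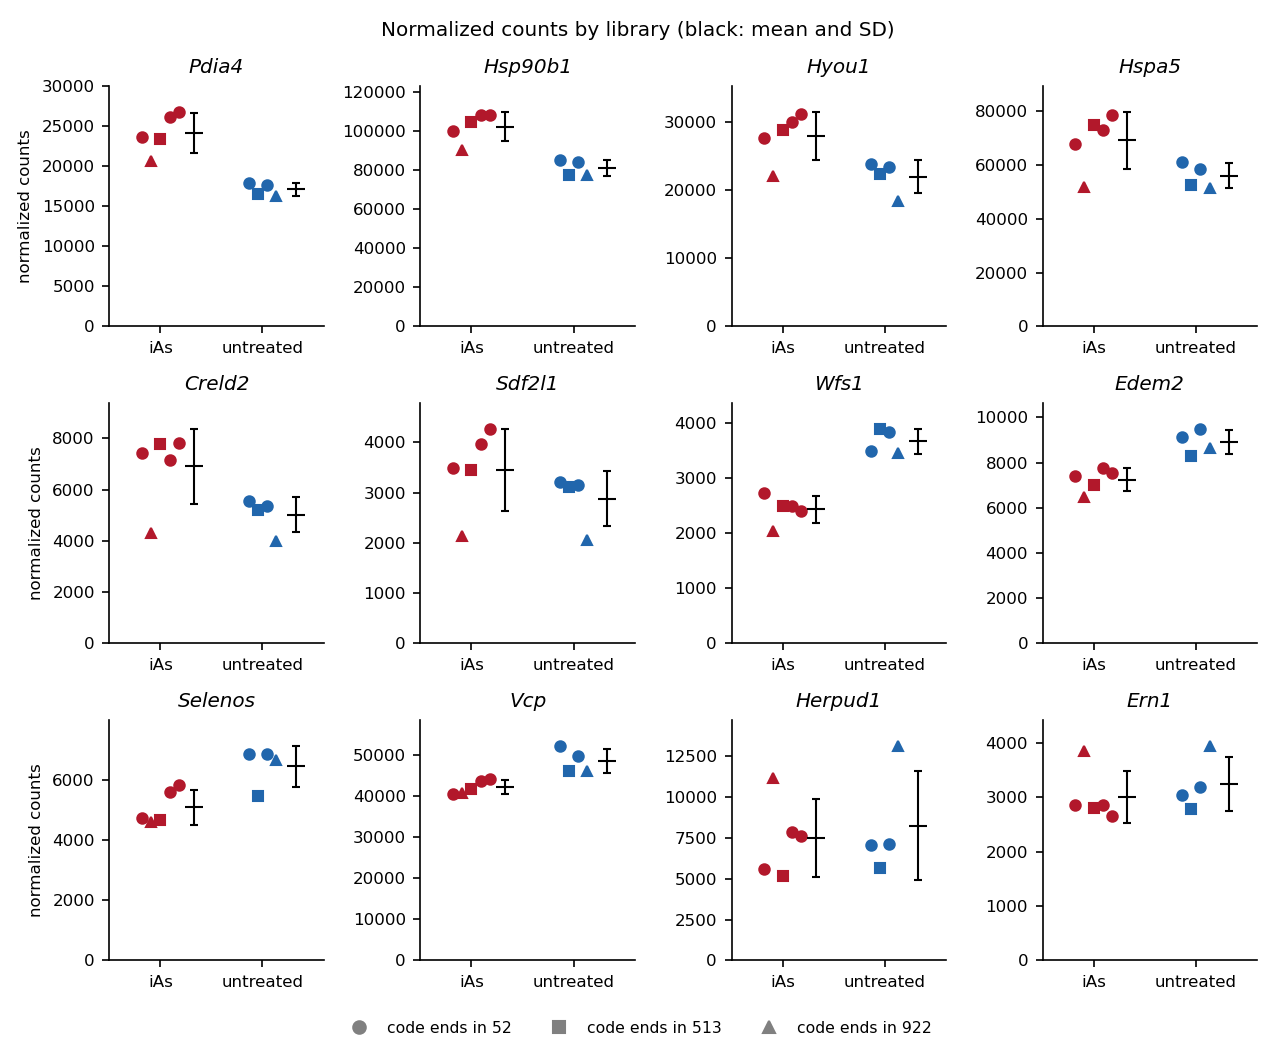
Normalized counts (y axes, from 0) of 12 genes in each library, iAs left and untreated right, with symbols for the ending of the library code and black bars for the mean and SD of 5 iAs and 4 untreated libraries. Pdia4 and Hsp90b1 are higher and Wfs1, Edem2 and Vcp lower in every library labelled iAs, while the triangles (1A922 and 0C922) are the lowest of each group for Hyou1, Hspa5, Creld2 and Sdf2l1 and the highest for Herpud1 and Ern1.

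ER-associated degradation draws misfolded proteins out of the ER to the proteasome, and 3 of its 11 genes were called, all lower: Edem2, Selenos and Vcp. Of all genes 30.0% were called and 14.9% were lower. Edem2 encodes the mannosidase that starts to trim sugars on misfolded glycoproteins. Edem2 (ENSRNOG00000019299) had 7397, 6461, 7009, 7771 and 7538 normalized counts in iAs replicates 1 to 5, against 9132, 8290, 9492 and 8646 in untreated replicates 1 to 4. The groups did not overlap, and the log2 difference was -0.30 (SE 0.06, adjusted p = 0.0041), called in all 23 alternatives. Its relative Edem1 went the other way, at 0.17 (SE 0.08, adjusted p = 0.14), and was called higher with the ending as a term (0.15, adjusted p = 0.032), but not without both 1A922 and 0C922 (0.16, adjusted p = 0.060) or in ending 52 alone (0.11, adjusted p = 0.27).

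Vcp encodes the ATPase p97, which pulls proteins from the membrane. It had 40584, 40723, 41873, 43752 and 44191 normalized counts in iAs replicates 1 to 5, against 52321, 46259, 49865 and 46232 in untreated replicates 1 to 4. No library labelled iAs reached an untreated one, although the difference was small (-0.20, SE 0.06, adjusted p = 0.017). Dropping untreated replicate 1 ended the call (-0.17, adjusted p = 0.063), as did dropping untreated replicate 3 (-0.19, adjusted p = 0.056). Selenos, a selenoprotein that recruits p97 to the ER membrane, had 4739, 4595, 4679, 5609 and 5820 normalized counts in iAs replicates 1 to 5, against 6873, 5449, 6852 and 6646 in untreated replicates 1 to 4. Its groups overlapped only through untreated replicate 2 (log2 difference -0.34, SE 0.09, adjusted p = 0.014). It was no longer called without both 1A922 and 0C922 (-0.29, adjusted p = 0.066).

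Herpud1 had 5572, 11136, 5174, 7875 and 7633 normalized counts in iAs replicates 1 to 5, against 7070, 5646, 7123 and 13121 in untreated replicates 1 to 4. The highest library of each group was 1A922 or 0C922, and the groups overlapped (log2 difference -0.12, SE 0.25, adjusted p = 0.76). Its SE was 0.09 with the ending as a term, at a difference of -0.10 (adjusted p = 0.43). Herpud1 overlaps another annotated coding gene, so its reads may be mixed. Syvn1, which encodes the ubiquitin ligase HRD1, differed by -0.19 (SE 0.08, adjusted p = 0.092), and with the ending as a term it was called lower (-0.19, adjusted p = 0.016). It was not called without both 1A922 and 0C922 (-0.16, adjusted p = 0.11) or in ending 52 alone (-0.16, adjusted p = 0.15). Syvn1 overlaps Mrpl49. Sel1l, the partner of HRD1, differed by -0.05, the lectin gene Os9 by -0.09, and the derlin genes Derl1 and Derl2, whose products form part of the exit channel, by 0.08 and -0.07, none of them called. Derl3, at 36.9 to 71.9 normalized counts in the libraries labelled iAs and 32.0 to 67.3 in those labelled untreated, differed by 0.30 with an SE of 0.28, too wide to place.

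The 4 genes of the translocon, the channel through which new proteins enter the ER, were not called, where 30.0% of all genes were. At an unadjusted p under 0.05, limma gave 1 of them (Ssr3). Sec61a1 and Sec61b encode channel subunits, and Ssr1 and Ssr3 subunits of the translocon-associated TRAP complex. Sec61b had 11882, 12037, 12474, 15167 and 14910 normalized counts in iAs replicates 1 to 5, against 14487, 12067, 14654 and 12172 in untreated replicates 1 to 4. Its values fell into a lower and a higher set in each group. The high ones were iAs replicates 4 and 5 and untreated replicates 1 and 3, all of ending 52, while iAs replicate 1 of the same ending was low. Sec61b and Sec61a1 differed by -0.01 and -0.02 (adjusted p = 0.96 and 0.88), and Ssr1 by 0.07. Ssr3 differed by 0.16 (SE 0.06, adjusted p = 0.053) and was called with the ending as a term (0.15, adjusted p = 0.037), but not without both 1A922 and 0C922 (0.18, adjusted p = 0.074) or in ending 52 alone (0.13, adjusted p = 0.23).

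The promoter matches shown above can be set beside these values. The 11 genes with an ERSE or ERSE-II had a median log2 difference of 0.15, from -0.12 (Herpud1) to 0.44 (Creld2), with 10 above 0, and 2 rose (Hsp90b1 and Hyou1) and 0 fell, where 15.1% of all genes rose and 14.9% fell. The 20 genes with a window and neither motif had a median of 0.01, with 10 above 0, and 1 rose and 4 fell. Their median SD within groups was 0.123, against 0.186 for the 11 with a match. With the ending as a term, 4 of the 11 rose and 0 fell, and 5 of the 20 rose and 5 fell. Of all genes 18.6% rose and 18.0% fell in that fit. Dnajb11 and Dnajc3, both with a match, then lay below 0 (-0.0012 and -0.018). Whether the 2 sets differ was not tested. Pdia4 had no match in this window.

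The other genes of the pathway, 117 tested from 7 lists, were called higher in 10 cases and lower in 19, with a median of -0.05, where 15.1% of all genes were called higher and 14.9% lower. In this fit the falls are near the share of all genes and the rises below it. With the ending as a term 13 rose and 35 fell (18.6% and 18.0% of all genes), and the falls lay above that share. Of 22 further ER-associated degradation genes 9 were called lower, 2 higher and 11 not, with a median of -0.17 (14.9% of all genes were lower and 15.1% higher), and 13 lower and 3 higher with the ending as a term (18.0% and 18.6% of all genes). Ube2j1, a ubiquitin-conjugating enzyme of the ER membrane, had 1331, 1326, 1539, 1457 and 1628 normalized counts in iAs replicates 1 to 5, against 2240, 2074, 2304 and 2163 in untreated replicates 1 to 4. Its groups did not overlap (log2 difference -0.60, adjusted p = 1.3e-04). Ubxn8, which tethers p97 to the ER membrane, fell by 0.41 (adjusted p = 0.0028).

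Disulfide and proline folding enzymes beyond the 39 genes rose in 4 of 18 cases and fell in 0, beside 15.1% and 14.9% of all genes. For these enzymes limma gave 5 rises and 1 fall at an unadjusted p under 0.05. They included the membrane thioredoxin-like proteins Tmx4 (0.33, adjusted p = 0.0011) and Tmx1 (0.34, adjusted p = 0.0015). Ero1b, the oxidase that supplies disulfide bonds in pancreatic islets and was picked here after its values were seen, had 2935, 2379, 3040, 2171 and 2075 normalized counts in iAs replicates 1 to 5, against 1712, 1994, 1533 and 1690 in untreated replicates 1 to 4 (log2 difference 0.53, adjusted p = 0.0059).

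For the remaining lists, the shares of all genes are 15.1% higher and 14.9% lower, or 18.6% and 18.0% with the ending as a term. With that term, translocation and signal peptidase had 0 rises and 4 falls, and N-glycosylation 1 and 4. ER exit and retrieval had 1 and 4, and further transcription factors and proteases 3 and 4. The counts that follow come from all 9 libraries. Of 19 genes of translocation and signal peptidase 0 rose and 2 fell, Srp14 (-0.23, adjusted p = 0.0068) and Sec62 (-0.15, adjusted p = 0.041). Sec62 kept its call only when the library left out was untreated replicate 2 or iAs replicate 5, and dropping any other gave limma adjusted p of 0.0511 to 0.0956. Of 16 genes of N-glycosylation 1 rose and 1 fell, Rpn1 (0.24, adjusted p = 0.014, and 0.066 in ending 52 alone) and Ost4 (-0.39, adjusted p = 1.3e-04), both subunits of the oligosaccharyltransferase. Of 19 genes of ER exit and retrieval 1 rose and 3 fell, among them the COPII coat genes Sec24d (0.20, adjusted p = 0.011, and 0.082 with quantile normalization) and Sec31a (-0.41, adjusted p = 9.0e-05). Of 13 further transcription factors and proteases 2 rose and 2 fell, including Nfyb (0.40, adjusted p = 0.0028), a subunit of the factor NF-Y that binds the CCAAT part of the ERSE, and Creb3 (-0.49, adjusted p = 5.7e-04), a membrane-bound transcription factor.

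The list of genes for the arm downstream of PERK showed the widest split by the ending. Whether PERK acted on them in these libraries was not tested. The 10 genes of this list had a median SD within groups of 0.388, and of 0.105 with the ending as a term. Chac1, a target of ATF4 and CHOP that breaks down glutathione, had 419, 6669, 355, 734 and 807 normalized counts in iAs replicates 1 to 5, against 832, 685, 945 and 7878 in untreated replicates 1 to 4. Both 1A922 and 0C922 lay far above the others, whatever their treatment label. Trib3, another target of ATF4 and CHOP, had 4488 in iAs replicate 2 and 538 to 999 in the other libraries labelled iAs, against 5620 in untreated replicate 4 and 732 to 1214 in the other untreated ones. Asns, the asparagine synthetase gene, had 8579 in iAs replicate 2 and 4614 to 4994 in the others, against 8865 in untreated replicate 4 and 4616 to 4791 in the others. Atf4 itself, chosen after its values were seen, had 30072 in iAs replicate 2 and 12939 to 15317 in the others, against 35809 in untreated replicate 4 and 15089 to 18464 in the others. It was not called over all 9 libraries (limma adjusted p = 0.41). Its log2 difference lay between -0.52 and -0.04 in the 23 alternatives. Atf4 was called lower in 2 of them, with the ending as a term and in ending 52 alone.

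Between the treatment labels, 2 of the 10 genes of this arm fell and 0 rose, beside 14.9% and 15.1% of all genes. Ddit3, which encodes CHOP, had 1608, 3203, 1569, 1935 and 2073 normalized counts in iAs replicates 1 to 5, against 3057, 2459, 3110 and 6014 in untreated replicates 1 to 4. Its log2 difference was -0.78 (adjusted p = 0.034), and -0.75 (adjusted p = 3.7e-05) with the ending as a term. Leaving out untreated replicate 4 gave -0.51 (adjusted p = 0.077), and dropping any other single library apart from untreated replicate 2 or iAs replicate 2 also ended the call, with limma adjusted p of 0.0518 to 0.0738. Without both 1A922 and 0C922 it was kept (-0.68, adjusted p = 0.0027). Ppp1r15a, which encodes the phosphatase subunit GADD34 that restores protein synthesis, differed by -0.61 (adjusted p = 0.0056), and by -0.60 (adjusted p = 2.2e-05) with the ending. With that term 6 of the 10 fell and 0 rose (18.0% and 18.6% of all genes), the others being Trib3 (-0.45), Ppp1r15b (-0.22), Chac1 (-0.54) and Sesn2 (-0.42). Ppp1r15b and Sesn2 were also called without both 1A922 and 0C922 (adjusted p = 0.0090 and 4.4e-04). Trib3 and Chac1 were not (adjusted p = 0.23 and 0.15), nor in ending 52 alone (adjusted p = 0.087 and 0.21), and each was called in 1 of 23 alternatives. Atf3, Asns, Vldlr and Eif2s1 were not called in either fit. Over all 9 libraries limma gave 0 rises and 4 falls among the 10 at an unadjusted p under 0.05.

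**Figure D5:**
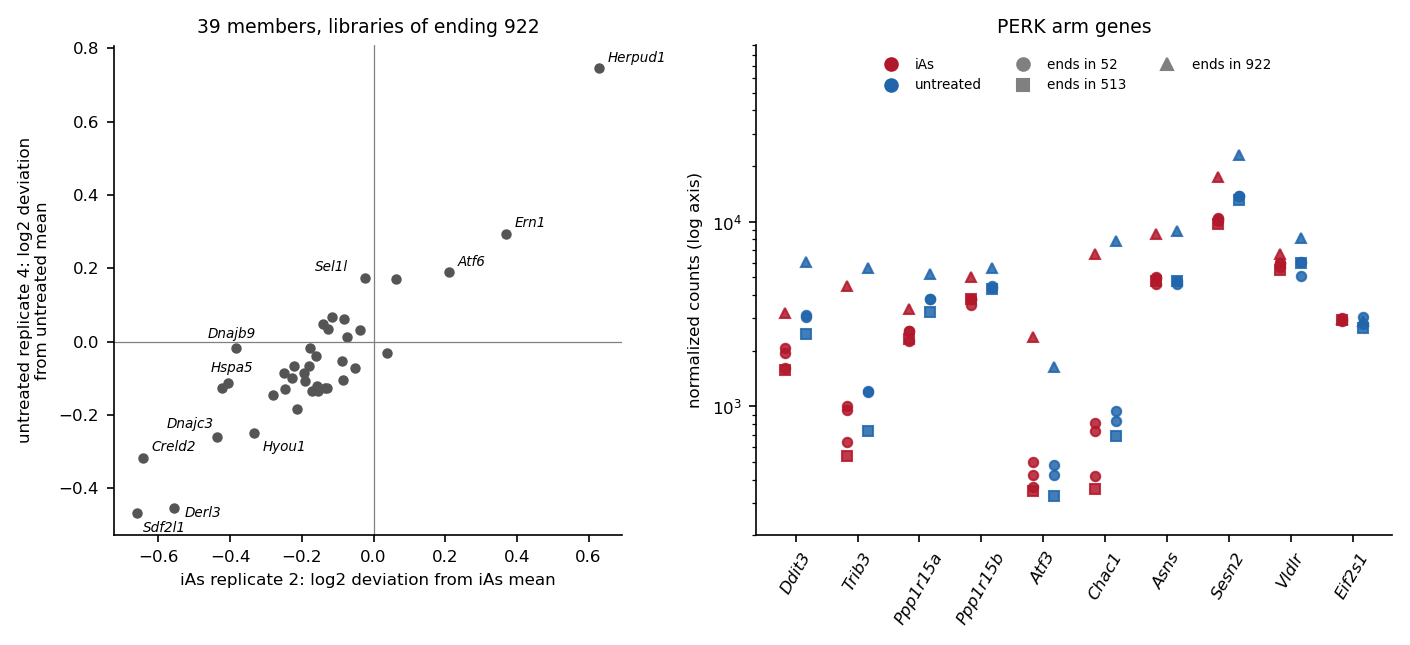
Left, log2 deviation of iAs replicate 2 from the iAs mean (x axis) against that of untreated replicate 4 from the untreated mean (y axis) for each of the 39 genes, which lie along a rising line (r = 0.91) from Sdf2l1 to Herpud1. Right, normalized counts (log axis) of the 10 genes of the PERK arm in each library, iAs left and untreated right for each gene, where the triangles (1A922 and 0C922) lie above the other libraries of their group for every gene shown except Eif2s1.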

How the data were processed

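RNA was polyadenylated RNA of INS-1 832/13 cells, prepared with a Kapa mRNA kit per the labels' protocols. The deposited table holds the normalized count signal per gene. The submitters' processing notes name DESeq2, STAR, Salmon and the build rn6, without roles, so how the authors made the values is known only that far. Most but not nearly all low values were whole multiples of a value of 1 read (75.0% to 88.9% per library, within 0.05), so whole reads were not recovered, no count test was run and the depth per library in reads is unknown. A deposited table of small RNAs was not used here.

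Values were tested as log2(normalized count + 1) with limma 3.58.1 in R 4.3.3 (trend, 5 iAs against 4 untreated libraries), with Benjamini-Hochberg adjustment over the 14410 genes with a mean of at least 10, and the procedure was tested on simulated data. The differences are on that scale, which understates low genes. Deviations, counts per role and the ending of the library code as a term were computed from the same values. Alternatives were scalings, filters, pseudocounts, weights, blocks and leaving out libraries, 23 for each gene. The members, roles and lists were chosen with earlier results of these data known. Beyond the 39 genes, the text names from each list the 2 genes with the smallest adjusted p and the whole PERK list, and Ero1b and Atf4 were added after their values were seen. Replicate numbers and endings follow the code in the description. In 4 libraries the code in the title differs, within the same group, and gives the ending 52 for 513 or the reverse. Same-numbered libraries did not deviate together. Counting by strand is not given in the sources used here, so the 6 genes that overlap another coding gene (Atf6, Pdia3, Creld2, Herpud1, Syvn1 and Derl3) are uncertain.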

Additional observations from a re-analysis of the deposited data

Results flagged for a closer look

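A library was listed here where its gap to the next one, divided by the range of its group, passed Dixon's 95% critical value. This held in 7 of 78 groups of the 39 genes and in 16 of 48 groups of the other named genes, and chance alone gives about 1 in 20 groups.

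Among the 39 genes, iAs replicate 2 stood apart high for Atf6 (3077 normalized counts) and Ern1 (3846) and low for Creld2 (4324). Untreated replicate 4, which shares the ending of its code, stood apart low for Sdf2l1 (2051) and high for Sel1l (11732). Untreated replicate 2 stood apart low for Derl1 (7435) and Selenos (5449). The fall of Selenos was kept without untreated replicate 2, and the fit without iAs replicate 2 calls Creld2 higher (0.60, limma adjusted p = 0.0010).

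Outside the 39 genes, iAs replicate 1 was low for Srp14 (3563). The other cases were all high values of the libraries 1A922 (iAs replicate 2) and 0C922 (untreated replicate 4). For Atf4 they were 30072 in iAs replicate 2 and 35809 in untreated replicate 4, for Trib3 4488 and 5620, and for Chac1 6669 and 7878, each in that order. For Atf3 they were 2374 in iAs replicate 2 and 1621 in untreated replicate 4, for Asns 8579 and 8865, and for Sesn2 17424 and 22880. For Ppp1r15b they were 5014 in iAs replicate 2 and 5618 in untreated replicate 4, and for Ppp1r15a 3361 in iAs replicate 2 alone. What the ending stands for was not tested.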

How the results depend on the processing

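The replicate numbers share only a number: deviations of same-numbered libraries correlated at 0.03, -0.04, 0.01 and -0.04 over all 14410 genes, none over 0.1, where the pair 1A922 and 0C922 gave 0.17 and the pair 1B513 and 0C513 0.03. With the replicate block, rises over all genes numbered 1349 and falls 1415, against 2181 and 2140 without it, and other pathway genes 5 and 10, against 10 and 19. A pair of alternatives was chosen after seeing the data, the block by the title codes and leaving out both 1A922 and 0C922 (iAs replicate 2 and untreated replicate 4). Under the replicate block the calls of Hyou1, Vcp, Rpn1, Sec24d, Srp14, Sec62 and Ddit3 were lost (adjusted p of 0.059 to 0.10), and under the title codes these and Hsp90b1 (0.075 to 0.15). The title codes as a block gave 1181 rises and 1197 falls over all genes, 4 and 7 among other pathway genes and 1 rise among the 39 genes. Rises among the 39 genes numbered 7 with array weights, 10 with the ending as a term and 7 without both 1A922 and 0C922, against 3. Rises over all genes in these fits numbered 2688, 2681 and 1983, against 2181. Falls among other pathway genes numbered 30 with equal totals, 32 with array weights and 35 with the ending, against 19. Over all genes these fits gave 2528, 2672 and 2597 falls, against 2140. Leaving out 1 library gave 2 to 8 rises (8 without iAs replicate 2) and 3 to 5 falls among the 39 genes, 8 to 10 and 11 to 24 among other pathway genes, and 1753 to 2067 and 1671 to 2009 over all genes.

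Signs turned in genes with small or widely spread differences. Dnajb11 and Dnajc3 were -0.011 and -0.014 with equal totals, -0.023 and -0.071 with array weights, -0.021 and -0.032 with the replicate block and with the title block, -0.0012 and -0.018 with the ending, and -0.043 and -0.086 in ending 52 alone. With quantile normalization Calr was -0.034, Canx -0.0072 and Uggt1 -0.0012. Asns was 0.067 with array weights, 0.013 with the ending, 0.046 in ending 52 alone and 0.030 without both 1A922 and 0C922. Atf3 was -0.014 with equal totals and -0.070 in ending 52 alone. In ending 52 alone Manf was 0.0023, Sel1l 0.019 and Vldlr 0.078, and without both 1A922 and 0C922 Manf was 0.043, Mesd 0.0011, Sel1l 0.012 and Vldlr 0.016. Leaving out 1 library gave -0.082 to 0.085 for Manf, -0.054 to 0.030 for Sec61a1, -0.057 to 0.039 for Sec61b, -0.026 to 0.095 for Dnajb11, -0.067 to 0.13 for Dnajc3, -0.012 to 0.091 for Sil1, -0.28 to 0.13 for Herpud1, -0.077 to 0.0055 for Sel1l, -0.49 to 0.52 for Atf3, -1.04 to 0.087 for Trib3, -1.40 to 0.14 for Chac1, -0.17 to 0.059 for Vldlr and -0.20 to 0.20 for Asns. The causes were not tested.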
